A study of Mus musculus with 81 samples.

Results

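The oligoadenylate synthetase (OAS) family of antiviral enzymes was followed across inbred mouse strains in sorted bone marrow neutrophils. Its 5 members here, Oasl1, Oasl2, Oas1a, Oas2 and Oas3, were the probe sets that the array's gene table pairs with exactly one of these symbols, 5 of the 24922 probe sets in the deposited table. Each gene had 1 such probe set, so each value below rests on a single probe set.

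The study measured RNA of CD11b+ Ly6G+ cells on Affymetrix whole-transcript arrays, 1 array for each pool of mice. All mice were males aged 6 weeks, untreated as far as the labels go, so strain is the only difference the labels give between groups. No processing batch is stated, so a batch effect cannot be told apart from strain. The titles form 40 groups with 81 arrays: 37 groups have 2 arrays, C57BL/6J has 5, and FVB/NJ and SWR/J have 1 each. The design text calls the arrays of a strain biological replicates.

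The 35 classical laboratory strains, named as in the labels, are 129S1/SvImJ, A/J, AKR/J, C3H/HeJ, C57BL/6J, C57BL/10J, C57BLKS/J(662), C57L/J (668), CBA/CaJ, CBA/J, CE/J, DDY/JclSidSeyFrkJ, FVB/NJ, KK.Cg-Ay/J, LGJ, LP/J(676), MA/MyJ, MRL/MpJ, NOD/ShiLtJ, NON/ShiLtJ, NOR/LtJ, NZB/BINJ, NZW/LacJ, P/J, PL/J, RIIIS/J, SEA/GnJ, SJL/J, SM/J, SWR/J and the groups titled Balb, BPL, BTBR, C57BR and DBA2. WSB/EiJ, PWD/PHJ, MSM/Ms, JF1/Ms and CAST/EiJ are wild-derived. KK.Cg-Ay/J carries the Ay allele. In those 5 titled groups, with 10 arrays, the genetic background label names another strain: BTBR T+ tf/J for titled Balb, BALB/cByJ for titled BPL, BPL/1J for titled BTBR, CBA/CaJ for titled C57BR and DBA/1LacJ for titled DBA2. They were kept as groups of their own under their titles.

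OAS enzymes bind double-stranded RNA, the mark of many replicating viruses, and join ATP into short oligoadenylates with an unusual linkage. These oligoadenylates switch on RNase L, which cuts viral and cellular RNA. Transcription of the family rises with interferon, and many interferon-stimulated promoters carry a short motif, the interferon-stimulated response element (ISRE). Oas1a, Oas2 and Oas3 encode active synthetases, with Oas2 and Oas3 built from repeated OAS units. Oasl1 and Oasl2 carry ubiquitin-like domains behind the OAS part. Oasl1 lacks synthetase activity and is known to restrain translation of Irf7, a main interferon regulator, whereas mouse Oasl2 keeps the activity.

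By gene order in the RefSeq annotation of GRCm38.p6, the family lies in 2 places on 1 chromosome. Oasl2 and Oasl1 are immediate neighbours. After 60 further protein-coding genes come Oas2 and Oas3 side by side, then Oas1e, Oas1c, Oas1b, Oas1f, Oas1h, Oas1g, Oas1a and Oas1d, with no other protein-coding gene between them. The RefSeq table held promoters for 4 of the 5 members. The 250 bases before the annotated start of each are shown because all 4 genes are interferon-stimulated, and capitals mark the ISRE core, GAAA followed by any 2 bases and GAAA again, searched on both strands. The windows, in GRCm38.p6, are chr5:114896684-114896933 and chr5:114922990-114923239 on the plus strand and chr5:120907526-120907775 and chr5:120777660-120777909 on the minus strand.
Oasl2: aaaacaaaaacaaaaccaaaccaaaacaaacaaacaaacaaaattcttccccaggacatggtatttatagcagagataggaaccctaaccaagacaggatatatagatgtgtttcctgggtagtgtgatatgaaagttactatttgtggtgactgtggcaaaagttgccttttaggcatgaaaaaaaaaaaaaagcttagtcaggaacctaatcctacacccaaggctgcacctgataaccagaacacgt
Oasl1: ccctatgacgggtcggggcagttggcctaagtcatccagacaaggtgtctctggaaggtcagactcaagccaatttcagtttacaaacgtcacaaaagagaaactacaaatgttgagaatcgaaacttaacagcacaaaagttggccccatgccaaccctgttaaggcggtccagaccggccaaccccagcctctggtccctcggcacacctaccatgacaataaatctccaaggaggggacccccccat
Oas1a: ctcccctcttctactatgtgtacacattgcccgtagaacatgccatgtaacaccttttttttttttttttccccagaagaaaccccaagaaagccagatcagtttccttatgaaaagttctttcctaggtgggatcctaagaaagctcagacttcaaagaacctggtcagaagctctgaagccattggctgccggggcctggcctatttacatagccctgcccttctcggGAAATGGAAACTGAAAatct
Oas3: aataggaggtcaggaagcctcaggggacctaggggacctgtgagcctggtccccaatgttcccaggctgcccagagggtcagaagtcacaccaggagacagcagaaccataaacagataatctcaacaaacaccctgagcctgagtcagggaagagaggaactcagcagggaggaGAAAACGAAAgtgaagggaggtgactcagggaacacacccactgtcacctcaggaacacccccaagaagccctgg
The Oas1a window held 2 overlapping ISRE cores, GAAATGGAAA from 20 to 11 bases and GAAACTGAAA from 14 to 5 bases before the start. The Oas3 window held 1, GAAAACGAAA from 75 to 66 bases before it. The Oasl1 and Oasl2 windows held none of these letters. The core was present in 978 of 32851 promoter windows of that length, 2.98%. The interferon-γ motif GAS, TTCNNNGAA on both strands, was present in 7.02% of them and once among the members, as TTCAAAGAA from 98 to 90 bases before the Oas1a start, where it is not in capitals. Beside the members, 9 of the 17 other interferon-stimulated genes with a promoter entry held the ISRE core and 3 held GAS. G and C made up 52% of the Oasl1 window, 37.6% of Oasl2, 45.2% of Oas1a and 55.6% of Oas3. These matches are descriptions of the C57BL/6J reference and not binding sites.

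Array medians of the deposited intensities ran from 97.2 to 114.8, and the highest correlation between any 2 arrays was 0.997, so no array was a copy of another. The markers of the sort were high: Ly6g averaged 13.64 on the log2 intensity scale, S100a8 13.48, S100a9 13.55 and Itgam, which encodes CD11b, 12.66, near the top of the scale. None of 13 neutrophil markers had a 2-fold range between strain means, although 8 passed the F test described next and 9 had an unadjusted p under 0.05, by limma. The mean of the 13 lay between 13.32 and 13.45 in every strain, but levels so near the top of the scale cannot show equal purity. In such a sorted population, fewer cells of a type and less RNA per cell cannot be told apart. The array follows the C57BL/6J sequence, and a variant under a probe can lower the intensity of another strain; its part in the results was not tested. Levels of different genes on this array are not comparable, so each gene is compared only with itself across strains.

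All 5 members differed between strains in a linear model of all arrays with a mean for each group (limma's moderated F test, Benjamini-Hochberg adjustment over all probe sets, called at an adjusted p under 0.05). Of all probe sets, 56% were called, 24.5% were called and had at least a 2-fold range between the lowest and highest strain mean, and 42.5% met both rules among those with a mean log2 intensity of at least 7. All 5 members met both rules, and all 5 had a mean of at least 7. The spread of strain means sets them further apart, since its median SD was 0.14 over all probe sets and 0.20 at a mean of at least 7. Oasl2, with an SD of 1.70, ranked 24 of 24922 from the widest, Oas2 (1.03) ranked 110, Oas3 (0.87) 190, Oasl1 (0.66) 501 and Oas1a (0.63) 572. Arrays of 1 strain differed far less, with a residual SD of 0.26 for Oasl2, 0.28 for Oas2, 0.20 for Oas3, 0.21 for Oasl1 and 0.22 for Oas1a.

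**Figure D1:**
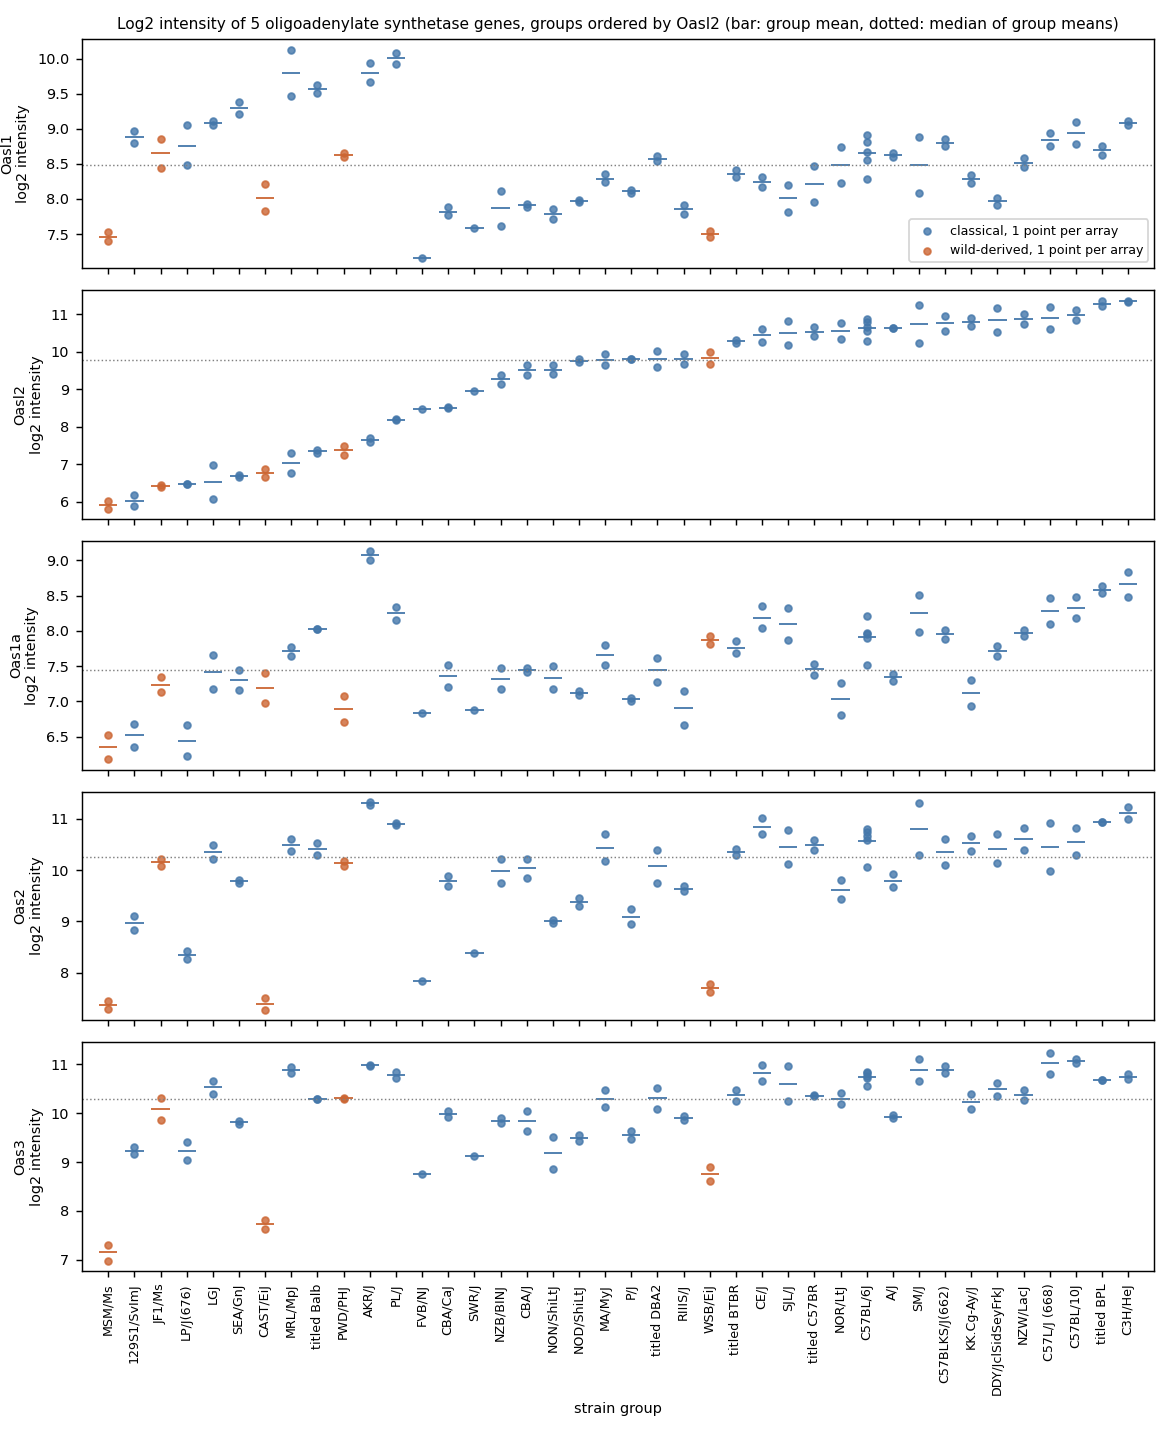
Log2 intensity of each member (rows) in 40 strain groups (x axis, ordered by mean Oasl2), with 1 point per array, a bar at each group mean and a dotted line at the median of group means; blue marks classical and orange wild-derived strains. Oasl2 climbs from 5.92 in MSM/Ms to 11.34 in C3H/HeJ, while Oasl1 is above its median in 10 of the 12 groups on the left.

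Oasl2 spanned the widest range of the family, 42.8-fold between MSM/Ms and C3H/HeJ (5.42 on the log2 scale; limma adjusted p = 3.0e-33), and 98.9% of its variance over arrays lay between strains. Array values ran from 5.82 through a median of 9.80 to 11.36. The levels are given as mean log2 intensity ± SD over arrays, with no SD for FVB/NJ and SWR/J. Lowest were MSM/Ms at 5.92 ± 0.15, 129S1/SvImJ at 6.03 ± 0.20, JF1/Ms at 6.42 ± 0.04, LP/J(676) at 6.47 ± 0.00, LGJ at 6.53 ± 0.65, SEA/GnJ at 6.69 ± 0.03 and CAST/EiJ at 6.77 ± 0.14. Next came MRL/MpJ at 7.03 ± 0.37, titled Balb at 7.34 ± 0.07, PWD/PHJ at 7.37 ± 0.17, AKR/J at 7.65 ± 0.09 and PL/J at 8.19 ± 0.01. These 12 groups with the lowest means hold 8 classical and 4 wild-derived strains. A middle band followed, of FVB/NJ at 8.47, CBA/CaJ at 8.51 ± 0.03, SWR/J at 8.96, NZB/BINJ at 9.26 ± 0.16, CBA/J at 9.51 ± 0.20 and NON/ShiLtJ at 9.51 ± 0.16. It went on with NOD/ShiLtJ at 9.76 ± 0.06, MA/MyJ at 9.78 ± 0.20, titled DBA2 at 9.79 ± 0.31, P/J at 9.79 ± 0.01, RIIIS/J at 9.80 ± 0.19 and WSB/EiJ at 9.83 ± 0.22, the highest of the wild-derived strains. Above it stood titled BTBR at 10.27 ± 0.07, CE/J at 10.43 ± 0.25, SJL/J at 10.50 ± 0.45, titled C57BR at 10.53 ± 0.18, NOR/LtJ at 10.54 ± 0.28, C57BL/6J at 10.63 ± 0.23, A/J at 10.63 ± 0.00 and SM/J at 10.73 ± 0.71. Highest were C57BLKS/J(662) at 10.76 ± 0.28, KK.Cg-Ay/J at 10.79 ± 0.17, DDY/JclSidSeyFrkJ at 10.84 ± 0.45, NZW/LacJ at 10.87 ± 0.20, C57L/J (668) at 10.90 ± 0.43, C57BL/10J at 10.98 ± 0.18, titled BPL at 11.28 ± 0.08 and C3H/HeJ at 11.34 ± 0.02. The pair of SM/J arrays differed most, at 10.23 and 11.24. Of the 39 steps between neighbours in this order, 10 exceeded the residual SD and 12 separated groups whose arrays did not overlap. The widest steps were 0.54 between AKR/J and PL/J, 0.45 between CBA/CaJ and SWR/J, and 0.44 between WSB/EiJ and titled BTBR. Within the band from titled BTBR to C57BL/10J no step exceeded the residual SD.

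Oasl1, the neighbour of Oasl2, ranged 7.22-fold (limma adjusted p = 6.1e-18), with 94.6% of its variance between strains and array values from 7.16 through a median of 8.47 to 10.13. Lowest were FVB/NJ at 7.16, MSM/Ms at 7.46 ± 0.09, WSB/EiJ at 7.50 ± 0.06, SWR/J at 7.59, NON/ShiLtJ at 7.78 ± 0.10, CBA/CaJ at 7.82 ± 0.08, RIIIS/J at 7.85 ± 0.09 and NZB/BINJ at 7.87 ± 0.36. Then came CBA/J at 7.91 ± 0.04, NOD/ShiLtJ at 7.97 ± 0.01, DDY/JclSidSeyFrkJ at 7.97 ± 0.07, SJL/J at 8.01 ± 0.27, CAST/EiJ at 8.02 ± 0.27, P/J at 8.11 ± 0.03, titled C57BR at 8.21 ± 0.36, CE/J at 8.24 ± 0.10 and KK.Cg-Ay/J at 8.29 ± 0.08. Single-array FVB/NJ stood 0.30 below MSM/Ms, and apart from this and the steps on both sides of titled Balb every step of the order was within the residual SD. The middle held MA/MyJ at 8.29 ± 0.08, titled BTBR at 8.36 ± 0.07, NOR/LtJ at 8.48 ± 0.36, SM/J at 8.49 ± 0.58, NZW/LacJ at 8.52 ± 0.10, titled DBA2 at 8.57 ± 0.05, A/J at 8.63 ± 0.04, PWD/PHJ at 8.63 ± 0.04, C57BL/6J at 8.65 ± 0.25 and JF1/Ms at 8.65 ± 0.29. Above it were titled BPL at 8.70 ± 0.09, LP/J(676) at 8.76 ± 0.40, C57BLKS/J(662) at 8.80 ± 0.07, C57L/J (668) at 8.84 ± 0.14, 129S1/SvImJ at 8.89 ± 0.13, C57BL/10J at 8.94 ± 0.23, C3H/HeJ at 9.09 ± 0.04 and LGJ at 9.09 ± 0.04. Highest were SEA/GnJ at 9.30 ± 0.13, titled Balb at 9.57 ± 0.09, MRL/MpJ at 9.80 ± 0.47, AKR/J at 9.80 ± 0.19 and PL/J at 10.01 ± 0.11. Each of these 5 highest groups was among the 12 lowest for Oasl2.

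Oas2, which lies beside Oas3, ranged 15.3-fold (limma adjusted p = 1.9e-21; 96.1% of the variance between strains), with array values from 7.27 through a median of 10.21 to 11.33. Lowest were MSM/Ms at 7.37 ± 0.12, CAST/EiJ at 7.39 ± 0.17, WSB/EiJ at 7.69 ± 0.11, FVB/NJ at 7.84, LP/J(676) at 8.34 ± 0.11 and SWR/J at 8.38. Then came 129S1/SvImJ at 8.97 ± 0.18, NON/ShiLtJ at 9.0 ± 0.03, P/J at 9.09 ± 0.22, NOD/ShiLtJ at 9.38 ± 0.11, NOR/LtJ at 9.62 ± 0.26, RIIIS/J at 9.64 ± 0.07, SEA/GnJ at 9.78 ± 0.04, CBA/CaJ at 9.78 ± 0.14 and A/J at 9.79 ± 0.17. The steps from FVB/NJ to LP/J(676), 0.50, and from SWR/J to 129S1/SvImJ, 0.59, were the widest and set the 6 lowest groups apart. From there the order was close, with NZB/BINJ at 9.98 ± 0.34, CBA/J at 10.04 ± 0.26, titled DBA2 at 10.08 ± 0.46, PWD/PHJ at 10.13 ± 0.07, JF1/Ms at 10.15 ± 0.11, C57BLKS/J(662) at 10.35 ± 0.37, LGJ at 10.35 ± 0.20, titled BTBR at 10.36 ± 0.08 and titled Balb at 10.41 ± 0.16. It continued with DDY/JclSidSeyFrkJ at 10.42 ± 0.40, MA/MyJ at 10.44 ± 0.38, C57L/J (668) at 10.45 ± 0.65, SJL/J at 10.46 ± 0.47, MRL/MpJ at 10.49 ± 0.16, titled C57BR at 10.49 ± 0.14, KK.Cg-Ay/J at 10.52 ± 0.21, C57BL/10J at 10.55 ± 0.37 and C57BL/6J at 10.57 ± 0.30. Highest were NZW/LacJ at 10.61 ± 0.31, SM/J at 10.80 ± 0.71, CE/J at 10.85 ± 0.22, PL/J at 10.90 ± 0.02, titled BPL at 10.94 ± 0.00, C3H/HeJ at 11.11 ± 0.17 and AKR/J at 11.30 ± 0.04. Above NOD/ShiLtJ no step between neighbours exceeded the residual SD, and SM/J again had the widest spread, with arrays at 10.30 and 11.30.

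Oas3 ranged 15.2-fold (limma adjusted p = 1.1e-24; 97.3% of the variance between strains), with array values from 6.98 through a median of 10.30 to 11.24. Lowest were MSM/Ms at 7.15 ± 0.24, CAST/EiJ at 7.73 ± 0.14, FVB/NJ at 8.75, WSB/EiJ at 8.75 ± 0.21, SWR/J at 9.12, NON/ShiLtJ at 9.18 ± 0.47, LP/J(676) at 9.23 ± 0.26 and 129S1/SvImJ at 9.23 ± 0.10. MSM/Ms and CAST/EiJ stood apart, with a step of 1.02 above CAST/EiJ. Then came NOD/ShiLtJ at 9.49 ± 0.08, P/J at 9.56 ± 0.12, SEA/GnJ at 9.81 ± 0.06, CBA/J at 9.85 ± 0.29, NZB/BINJ at 9.85 ± 0.08, RIIIS/J at 9.90 ± 0.06, A/J at 9.93 ± 0.04, CBA/CaJ at 9.98 ± 0.08 and JF1/Ms at 10.09 ± 0.31. The middle held KK.Cg-Ay/J at 10.23 ± 0.22, NOR/LtJ at 10.29 ± 0.16, titled Balb at 10.30 ± 0.01, MA/MyJ at 10.30 ± 0.25, titled DBA2 at 10.31 ± 0.30, PWD/PHJ at 10.31 ± 0.00, titled C57BR at 10.36 ± 0.01, titled BTBR at 10.37 ± 0.16, NZW/LacJ at 10.37 ± 0.15 and DDY/JclSidSeyFrkJ at 10.49 ± 0.19. These groups ran into each other, and above SEA/GnJ no step exceeded the residual SD. Next were LGJ at 10.53 ± 0.19, SJL/J at 10.60 ± 0.51, titled BPL at 10.67 ± 0.01, C57BL/6J at 10.75 ± 0.12, C3H/HeJ at 10.75 ± 0.07, PL/J at 10.79 ± 0.08 and CE/J at 10.82 ± 0.24. Highest were SM/J at 10.88 ± 0.33, MRL/MpJ at 10.88 ± 0.10, C57BLKS/J(662) at 10.89 ± 0.10, AKR/J at 10.98 ± 0.02, C57L/J (668) at 11.03 ± 0.30 and C57BL/10J at 11.07 ± 0.07. C57BL/6J and its relatives C57BL/10J, C57BLKS/J(662) and C57L/J (668) were thus all among the 10 highest for this gene. Titled C57BR, whose background label is CBA/CaJ, stood lower, at 10.36 ± 0.01.

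Oas1a ranged least, 6.57-fold (limma adjusted p = 4.2e-17; 94% of the variance between strains), with array values from 6.18 through a median of 7.52 to 9.13. Lowest were MSM/Ms at 6.35 ± 0.24, LP/J(676) at 6.44 ± 0.31, 129S1/SvImJ at 6.52 ± 0.23, FVB/NJ at 6.83, SWR/J at 6.88, PWD/PHJ at 6.89 ± 0.26, RIIIS/J at 6.90 ± 0.35, P/J at 7.03 ± 0.04 and NOR/LtJ at 7.03 ± 0.32. Then came NOD/ShiLtJ at 7.12 ± 0.04, KK.Cg-Ay/J at 7.12 ± 0.26, CAST/EiJ at 7.19 ± 0.30, JF1/Ms at 7.23 ± 0.15, SEA/GnJ at 7.31 ± 0.21, NZB/BINJ at 7.32 ± 0.21, NON/ShiLtJ at 7.33 ± 0.24, A/J at 7.34 ± 0.07, CBA/CaJ at 7.36 ± 0.21 and LGJ at 7.42 ± 0.34. Only 3 of its 39 steps exceeded the residual SD, below FVB/NJ, below titled BPL and below AKR/J. The middle held CBA/J at 7.44 ± 0.03, titled DBA2 at 7.45 ± 0.25, titled C57BR at 7.46 ± 0.11, MA/MyJ at 7.66 ± 0.20, DDY/JclSidSeyFrkJ at 7.71 ± 0.10, MRL/MpJ at 7.71 ± 0.08, titled BTBR at 7.76 ± 0.12, WSB/EiJ at 7.87 ± 0.09 and C57BL/6J at 7.91 ± 0.25. Above it were C57BLKS/J(662) at 7.95 ± 0.09, NZW/LacJ at 7.97 ± 0.06, titled Balb at 8.03 ± 0.00, SJL/J at 8.10 ± 0.32, CE/J at 8.19 ± 0.22, PL/J at 8.25 ± 0.14 and SM/J at 8.25 ± 0.37. Highest were C57L/J (668) at 8.28 ± 0.26, C57BL/10J at 8.33 ± 0.21, titled BPL at 8.58 ± 0.07, C3H/HeJ at 8.66 ± 0.26 and AKR/J at 9.07 ± 0.08. A further probe set is annotated to Oas1a and its near copy Oas1g together and counts for neither; it ranged from 6.96 to 10.30 and followed Oas1a across strains (r = 0.97 over 40 strain means). Cross-hybridisation between these copies was not tested.

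Oas2 and Oas3 rose and fell together across strains, while Oasl2 and its neighbour Oasl1 did not. Correlations here are descriptions over 40 strain means, which share arrays and RNA pools between genes, and carry no p. Pearson's r was 0.94 for Oas2 and Oas3, with a Spearman rho of 0.89, and 0.93 without MSM/Ms and CAST/EiJ, the groups farthest from the Oas2 median. Oas1a followed Oas2 (r = 0.72) and Oas3 (r = 0.70), and more closely in the classical strains alone (0.85 and 0.83). In WSB/EiJ, Oas1a was 7.87, near its C57BL/6J mean of 7.91, although Oas2 was at 7.69 against 10.57. PWD/PHJ showed the reverse, with Oas1a at 6.89 and Oas2 at 10.13.

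**Figure D2:**
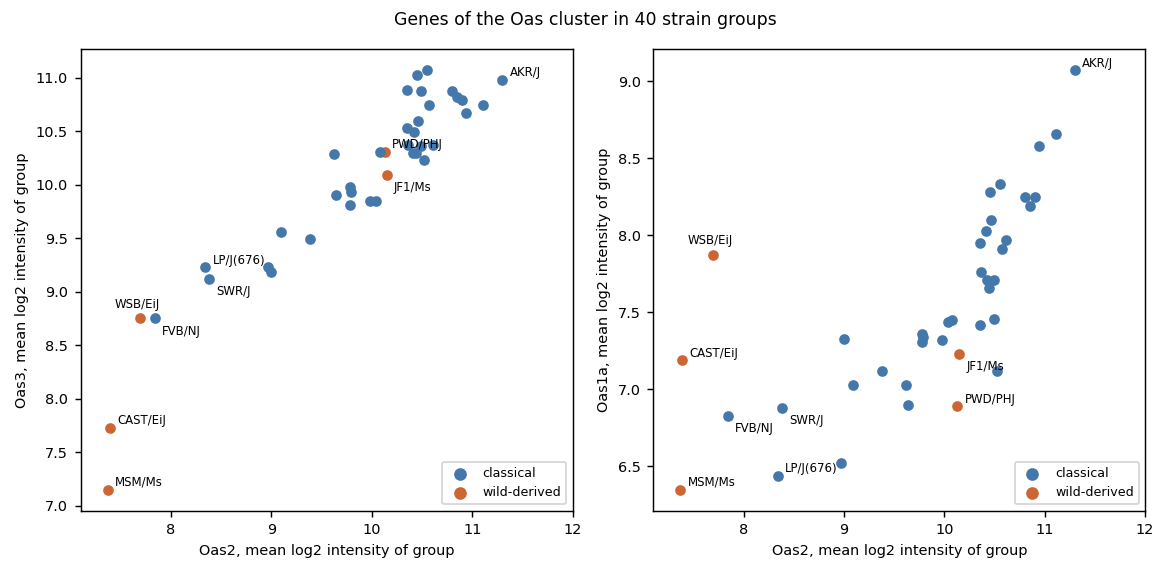
Mean log2 intensity of Oas3 (left) and Oas1a (right) against Oas2, 1 point per strain group, classical in blue and wild-derived in orange. Oas3 follows Oas2 closely, whereas WSB/EiJ and CAST/EiJ sit above the other groups with low Oas2 in the Oas1a panel.

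Oasl1 correlated with Oas2 and Oas3 at 0.60 each and with Oas1a at 0.48. Oasl2 correlated with Oas1a at 0.48, with Oas2 at 0.43 and with Oas3 at 0.48. Between Oasl1 and Oasl2 r was −0.21, against a rho of −0.03, and −0.36 in the classical strains alone; it was −0.22 without PL/J and FVB/NJ. Arrays of the same strain behaved otherwise. Over 79 arrays of strains with more than 1, deviations from the strain mean correlated at 0.62 between Oasl1 and Oasl2, at 0.80 between Oasl2 and Oas2, at 0.75 between Oasl2 and Oas3 and at 0.71 between Oas2 and Oas3. Without the SM/J arrays these values were 0.53, 0.76, 0.73 and 0.68. These were the highest values, and the remaining pairs of members ran from 0.20 for Oasl1 and Oas1a to 0.58 for Oas1a and Oas2. Oas1a and Oas3 correlated at 0.26. Without SM/J those 3 values were 0.10, 0.53 and 0.20. In a group of 2 arrays both deviations are equal in size and opposite in sign, so the 79 are not independent values. In SM/J 1 array was higher than the other for all 5 members, and in C57BL/6J replicate 1 was the lowest of 5 arrays for all 5 members, at 8.28 for Oasl1, 10.28 for Oasl2, 7.52 for Oas1a, 10.06 for Oas2 and 10.56 for Oas3.

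The strain means of Oasl2 minus Oasl1 fell on either side of a gap, a pattern noticed after the values were seen and given without a test. Since each gene has its own probe set, the sign of this difference has no meaning and only its spread over strains is read. It ran from −2.86 to −1.25 in 12 groups with 24 arrays and from 0.69 to 2.87 in 28 groups with 57 arrays, leaving a gap of 1.94; the next widest gap was 0.54. No array crossed it, with −1.16 the highest array value below and 0.61 the lowest above. The 12 groups were 129S1/SvImJ, MRL/MpJ, SEA/GnJ, LGJ, LP/J(676), titled Balb, AKR/J and PL/J among the classical strains and JF1/Ms, MSM/Ms, PWD/PHJ and CAST/EiJ among the wild-derived. CBA/CaJ, at 0.69, was the nearest above the gap and CAST/EiJ, at −1.25, the nearest below.

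**Figure D3:**
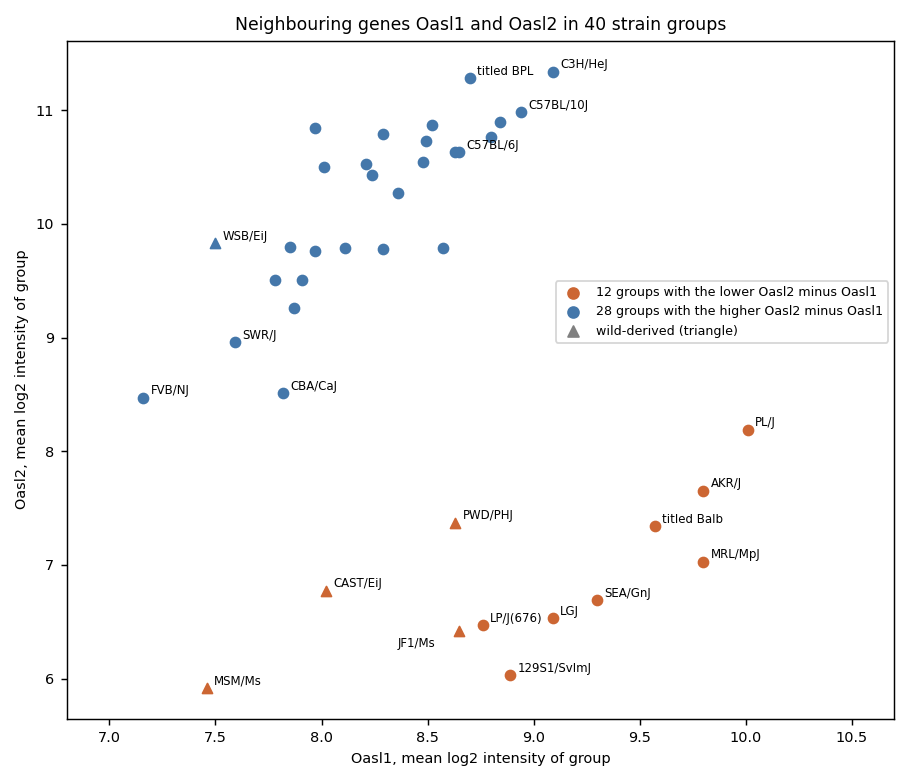
Mean log2 intensity of Oasl2 (y axis) against Oasl1 (x axis), 1 point per strain group, with triangles for wild-derived strains and colours for the sides of the gap in Oasl2 minus Oasl1. The 12 orange groups lie below and to the right of the 28 blue ones, separated by 1.94 on the difference, and both sets slope upwards.

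Since the sides were made from Oasl2 minus Oasl1 and Oasl2 varied most, a wide split of Oasl2 follows from their making: its median was 6.73 in the 12 groups and 10.46 in the 28. Oasl1 had medians of 8.99 and 8.26, Oas2 of 10.14 and 10.35, Oas3 of 10.19 and 10.30, and Oas1a of 7.27 and 7.56. AKR/J is the clearest single case, with the highest Oas2 (11.30) and Oas1a (9.07) of all groups, Oasl1 at 9.80 and Oasl2 at 7.65. Within each side Oasl1 and Oasl2 rose together, with r = 0.71 over the 12 groups and 0.82 over the 28, although splitting on their difference raises such an r by itself. Around them lay 18 other measured genes within 10 protein-coding genes on each side. Only Gltp, a glycolipid transfer protein, had a called 2-fold range, from 9.06 to 10.65, and its r with Oasl2 was −0.30. Over the 18 genes r with Oasl2 ran from −0.54 to 0.40.

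The genes most like each member were found by Pearson's r over the 40 strain means among 8456 other genes with a mean of at least 7. For Oasl1 they were Usp18, an interferon-induced brake on the receptor (0.77), Irf7 (0.75) and Irf9 (0.72). For Oas1a they were Adar, an RNA-editing enzyme (0.83), Usp18 (0.79) and Rtp4, an interferon-stimulated gene (0.78). For Oas2 they were Oas3 (0.94), Usp18 (0.85) and Irf9 (0.84), and for Oas3 they were Oas2 (0.94), Adar (0.83) and Irf9 (0.83). Oasl2 had other company, with lower values: Kit, a growth factor receptor (0.68), Rnf34, a ubiquitin ligase (0.67), and Hcar2, a metabolite receptor (0.56). By RefSeq gene order all 3 lie on the chromosome of the OAS genes, Kit 345, Rnf34 109 and Hcar2 130 protein-coding genes away from Oasl2, whereas Usp18, Irf7, Irf9, Adar and Rtp4 lie on others. Looking wider, which was chosen after these values were seen, 6 of the 20 genes most like Oasl2 lay on that chromosome and 1 belonged to the interferon lists below. For Oasl1 the counts were 4 and 10, for Oas1a 3 and 10, for Oas2 3 and 8 and for Oas3 3 and 9, and 6.33% of the compared genes lay there. Other OAS genes stayed in these counts. For Oas2, Oas3 (0.94), Oas1b (0.83) and Oas1a (0.72) passed the lowest r counted, 0.66. For Oasl1, Oas1b (0.68), Oas2 and Oas3 (0.60 each) passed 0.54. With Oasl2 no OAS gene exceeded 0.48, short of its 0.51, so the counts are not alike between members.

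Against C57BL/6J, the strain of the array's reference sequence, more strains were called lower than higher for each member, though most contrasts were not called for any of them. All 39 contrasts share the same 5 C57BL/6J arrays, so they are given side by side and not as independent comparisons. A contrast was called at a limma adjusted p under 0.05 and a difference of at least 1 on the log2 scale, which over all probe sets and contrasts called 0.688% lower and 0.929% higher. Oasl2 was lower in 18 strains, Oas2 and Oas3 in 10 each, Oas1a in 7 and Oasl1 in 4. Oasl1 was higher in 3 strains and Oas1a in 1. Oasl2, Oas2 and Oas3 were called higher in 0 strains by limma, while 2, 2 and 1 contrasts had an unadjusted p under 0.05 in that direction. By the adjusted p alone Oasl2 was lower in 24 strains, Oas3 in 19, Oas1a in 18, Oas2 in 16 and Oasl1 in 13, and Oasl1 was higher in 5, Oas1a in 3, Oasl2 in 2, Oas2 in 1 and Oas3 in 0. The higher Oasl2 groups were C3H/HeJ (0.72, limma adjusted p = 0.0126) and titled BPL (0.65, 0.0469), and the higher Oas2 group was AKR/J (0.73, 0.0178), all short of 2-fold. Without C57BL/6J replicate 2, its highest Oas1a array, Oas1a was lower in 4 strains.

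FVB/NJ, SWR/J and MSM/Ms were lower by both rules for all 5 members. The Oasl2 difference was −2.16 ± 0.26 (SE) in FVB/NJ, −1.67 ± 0.26 in SWR/J and −4.70 ± 0.20 in MSM/Ms. The Oas2 difference was −2.73 ± 0.28, −2.19 ± 0.28 and −3.20 ± 0.22 in the same order. FVB/NJ and SWR/J rest on 1 array each, assumed to vary like the other groups. The related strains 129S1/SvImJ and LP/J(676) were lower for every member except Oasl1, which stood at 8.89 and 8.76 against 8.65 in C57BL/6J. There the Oasl2 difference was −4.60 ± 0.20 and −4.15 ± 0.20 (24.2-fold and 17.8-fold lower), and the Oas1a difference −1.39 ± 0.17 and −1.47 ± 0.17.

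In other strains part of the family passed the 2-fold limit, and further members often passed the adjusted p short of it; whether members differed from each other within a strain was not tested. WSB/EiJ passed both for Oasl1, Oas2 and Oas3, with a difference of −2.87 ± 0.22 for Oas2 (limma adjusted p = 2.5e-15). Its Oasl2 was lower by a smaller amount (−0.80 ± 0.20, adjusted p = 0.00463), and its Oas1a difference was −0.04 ± 0.17 (0.956). NON/ShiLtJ and CAST/EiJ passed both for Oasl2, Oas2 and Oas3, and the adjusted p for the other members too. NOD/ShiLtJ passed both for Oas2 and Oas3, with smaller differences in Oasl1 (−0.68), Oasl2 (−0.86) and Oas1a (−0.79) that passed the adjusted p. P/J passed both for the same pair of genes and the adjusted p for Oasl2 (−0.83) and Oas1a (−0.88). PWD/PHJ passed both for Oasl2 and Oas1a and the adjusted p for Oas3 (−0.44, 0.0455). Another 11 strains were lower by both rules for a single member. In 10 of them, AKR/J, CBA/CaJ, CBA/J, JF1/Ms, LGJ, MRL/MpJ, NZB/BINJ, PL/J, SEA/GnJ and titled Balb, it was Oasl2, and in RIIIS/J it was Oas1a. Among these, CBA/CaJ, NZB/BINJ, RIIIS/J and SEA/GnJ passed the adjusted p for all 5 members, in SEA/GnJ with Oasl1 higher (0.65) and the others lower. The 3 strains with Oasl1 higher by at least 2-fold were among the 10: AKR/J by 1.16 ± 0.17, MRL/MpJ by 1.15 ± 0.17 and PL/J by 1.36 ± 0.17, and AKR/J was also higher for Oas1a, by 1.16 ± 0.17. In the remaining 17 strains none of the members was lower by both rules.

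In all, 7 pairs of strains with names or histories in common were compared directly in the same model, with a call at a limma adjusted p under 0.05. MSM/Ms and JF1/Ms, wild-derived strains of Japanese mice, both had low Oasl2 but differed widely in the Oas cluster. Oas3 read 6.98 and 7.31 in the MSM/Ms arrays and 9.87 and 10.31 in JF1/Ms, a difference of −2.95 ± 0.19 (limma adjusted p = 1.4e-17). Oas2 differed by −2.78 ± 0.26 (8.8e-12), Oasl1 by −1.19 ± 0.20 (4.7e-05) and Oas1a by −0.88 ± 0.20 (0.00501). Thus 4 of 5 members were lower in MSM/Ms, where 3.12% of probe sets were called in this pair. The Oasl2 difference, −0.49 ± 0.24, was not called (adjusted p = 0.383). Leaving out 1 array at a time moved the adjusted p of Oas1a between 0.00871 and 0.124 and kept the other 3 calls; it was lost without JF1/Ms replicate 2 or MSM/Ms replicate 1.

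NZB/BINJ was lower than NZW/LacJ for all 5 members, most for Oasl2 (−1.61 ± 0.24, limma adjusted p = 1.2e-06; arrays at 9.14 and 9.38 against 10.73 and 11). That pair called 45.5% of all probe sets, and under quantile normalization 2 members were called. The other differences were between −0.52 for Oas3 and −0.66 for Oasl1, and 2 to 4 members were called when 1 array of the pair was left out. NOD/ShiLtJ was lower than its relative NOR/LtJ for Oas3 (−0.80 ± 0.19, adjusted p = 0.00466) and Oasl2 (−0.78 ± 0.24, 0.0415), in a pair with 5.56% of probe sets called. Without NOD/ShiLtJ replicate 2 or NOR/LtJ replicate 2 neither was called, and without NOD/ShiLtJ replicate 1 a single member was. With a common array median 1 member was called.

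CBA/J exceeded CBA/CaJ for Oasl2 by 1.00 ± 0.24 (limma adjusted p = 0.0132; 1.71% of probe sets called), with arrays at 9.37 and 9.65 against 8.49 and 8.53. The call was lost when any 1 of these 4 arrays was left out, with an adjusted p from 0.0622 to 0.225. Titled C57BR carries the background label CBA/CaJ too but had Oasl2 at 10.53 ± 0.18, and with the groups formed by that label the difference was −0.01. MRL/MpJ exceeded LGJ for Oasl1 by 0.71 ± 0.20 (limma adjusted p = 0.0302, with 3.84% of probe sets called). This call was lost with a common array median. With 1 array left out the difference ran from 0.38 to 1.04, and the call held only without MRL/MpJ replicate 1. Both strains were among the 12 groups with low Oasl2.

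C57BL/10J and C57BL/6J had 0 of 5 members called by limma, with 2 at an unadjusted p under 0.05, against 2.65% of probe sets called. The differences were between −0.01 ± 0.22 for Oas2 and 0.42 ± 0.17 for Oas1a. 129S1/SvImJ and LP/J(676) likewise had 0 called by limma and 1 at an unadjusted p under 0.05, against 2.43% of probe sets. There the Oas3 difference was 0.00 ± 0.19 and the Oas2 difference 0.63 ± 0.26 (adjusted p = 0.179).

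**Figure D4:**
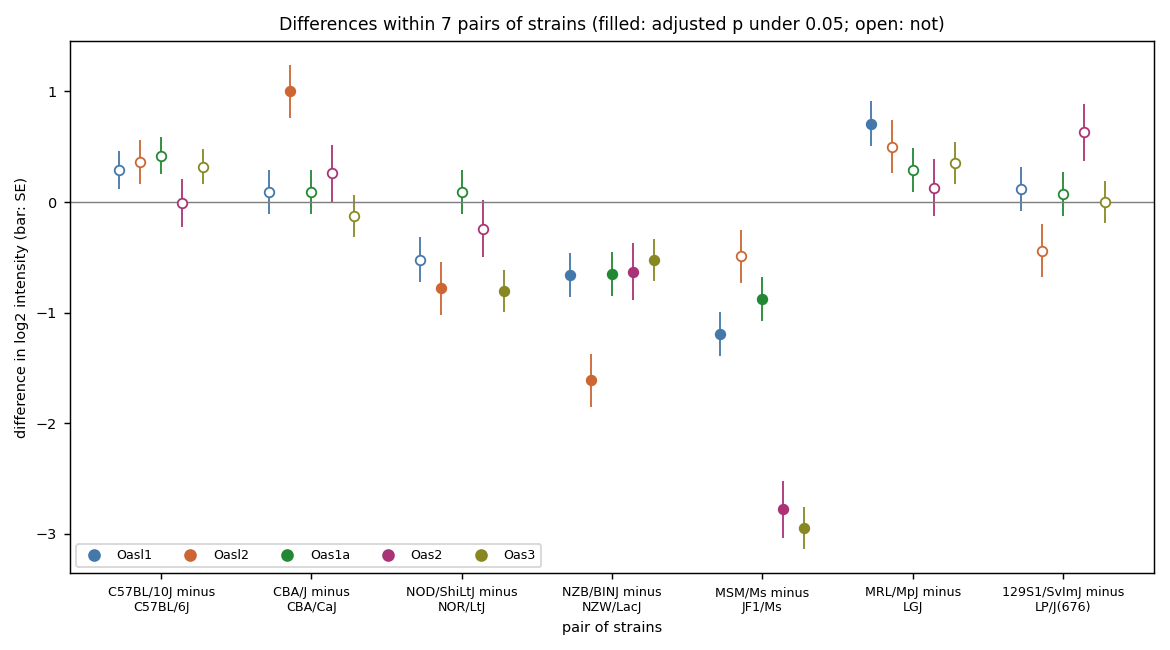
Difference in log2 intensity (y axis, with SE bars) for the 5 members in 7 pairs of strains (x axis), filled where the limma adjusted p was under 0.05 and open elsewhere. The −2.95 of Oas3 and −2.78 of Oas2 in MSM/Ms minus JF1/Ms are the widest differences drawn.

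Wild-derived strains were lower than classical strains for Oas3, Oas2 and Oasl2, with the strain mean as the replicate (limma, Benjamini-Hochberg over all probe sets). In this comparison 5.55% of probe sets were lower and 6.64% higher. The test assumes 1 spread for both origins and counts related strains as separate replicates. Wild-derived strains spread more widely for Oas3, as given next, and for Oas2 (SD 1.46 against 0.82). The adjusted p values of these genes may therefore be too small. Oas3 averaged 8.80 ± 1.40 (SD, n = 5) in wild-derived and 10.22 ± 0.62 (n = 35) in classical strains, a difference of −1.41 ± 0.34 (limma adjusted p = 0.00421). Its 5 wild-derived means were 7.15 in MSM/Ms, 7.73 in CAST/EiJ, 8.75 in WSB/EiJ, 10.09 in JF1/Ms and 10.31 in PWD/PHJ, and only the first 2 lay below every classical strain. Oas2 differed by −1.51 ± 0.42 (limma adjusted p = 0.0122), with 5 of 5 wild-derived means below the classical median of 10.36 and 3 below every classical mean. Oasl2 differed by −2.20 ± 0.72 (limma adjusted p = 0.0368), with WSB/EiJ, at 9.83, just above the classical median of 9.79 and the other 4 at 7.37 or lower. The origins overlapped for all 5 members. Oasl1 (−0.47 ± 0.30, adjusted p = 0.325) and Oas1a (−0.51 ± 0.28, 0.245) were not called.

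Single strains decided these calls. Without MSM/Ms, 0 members were called by limma, with adjusted p values of 0.0784 for Oas3, 0.0997 for Oas2 and 0.159 for Oasl2, though 3 kept an unadjusted p under 0.05. Without CAST/EiJ the Oas3 call alone held. The Oasl2 call was also lost without JF1/Ms or PWD/PHJ, and the Oas2 call without WSB/EiJ. Marker lists of other cell types moved in part with the origins. The azurophil granule and progenitor list averaged 6.27 to 6.57 in wild-derived and 6.49 to 7.31 in classical strains, and 3 of its 8 genes were lower in wild-derived strains by limma: Kit (−1.54, adjusted p = 1.5e-06), Ms4a3 (−0.85) and Prss57 (−0.38). Cd34 was higher by 0.13. Pcna (−1.13), Tcf4 (−0.64), Hdc (−0.53), Camp (−0.37), Cd79b (−0.25) and S100a8 (−0.20) were also lower, and Csf1r (0.45) and Siglecf (0.54) higher. The means of the azurophil granule and progenitor list overlapped between origins, as did those of the lists that follow. The mean of 9 monocyte and macrophage markers lay between 6.99 and 7.30 in wild-derived and between 6.91 and 7.77 in classical strains. That of 6 plasmacytoid dendritic cell markers lay between 6.74 and 6.86 and between 6.62 and 7.19. Cell cycle genes averaged 7.17 to 8.13 in wild-derived and 6.95 to 9.65 in classical strains. The basophil and mast cell list averaged 5.98 to 6.31 in wild-derived and 6.22 to 6.58 in classical strains. The part of these lists in the result was not tested.

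**Figure D5:**
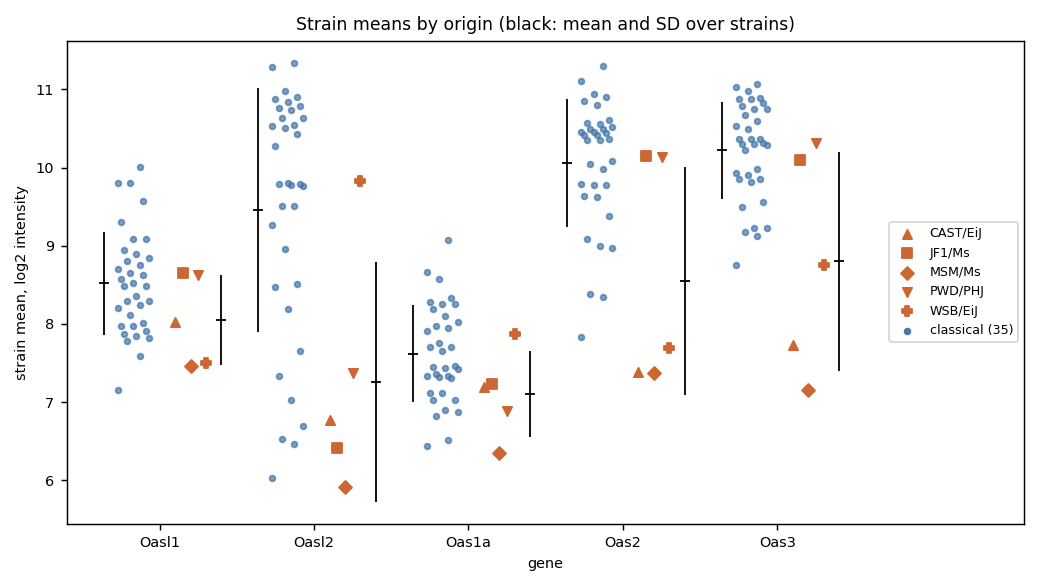
Strain means of log2 intensity (y axis) for the 5 members (x axis), with blue points for the 35 classical strains, orange symbols for each wild-derived strain and black bars for the mean and SD over strains. MSM/Ms and CAST/EiJ lie at 7.37 and 7.39 for Oas2, while JF1/Ms and PWD/PHJ, at 10.15 and 10.13, lie among the classical strains.

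Of the other OAS genes, 6 of 7 had a probe set of their own, and 2 were called with a 2-fold range. Oas1b, known from resistance of mice to flaviviruses and annotated as a transcribed pseudogene in the C57BL/6J reference, ranged from 7.36 in SWR/J to 9.27 in C3H/HeJ (limma adjusted p = 7.3e-10) and followed Oas2 (r = 0.83). Oas1c ranged from 5.79 in JF1/Ms to 7.67 in CE/J (4.5e-14) and was lower in wild-derived strains by 0.91 (limma adjusted p = 8.9e-05). Oas1d, Oas1e, Oas1f and Oas1h had adjusted p values of 0.107, 0.241, 0.595 and 0.113, with means between 4.44 and 5.86. Among partners of the enzymes, Abce1, an inhibitor of RNase L with a wider role in ribosome recycling, was lowest in KK.Cg-Ay/J, at 6.66, and highest in titled Balb, at 8.40 (1.8e-09). Pde12, which degrades the oligoadenylates, was called (0.0105) without a 2-fold range. RNase L itself was not analysed here.

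The interferon pathway was described by counts on the same F test, to be read against the 56% of all probe sets called, the 24.5% with a 2-fold range as well and the 42.5% with it at a mean of at least 7. Shares of 2 in 6 receptors and 4 in 10 transducers with a 2-fold range are near that background. Of 7 measured ligand genes 0 were called by limma, and 1 had an unadjusted p under 0.05, with list means between 6.12 and 6.40 over strains. All 6 receptor genes were called, 2 with a 2-fold range, led by Ifnar2 (10.90 to 12.14). Of 10 signal transducers 9 were called and 4 had a 2-fold range, led by Irf7 (8.12 in CAST/EiJ to 10.22 in AKR/J) and Irf5 (6.94 to 8.90). Of 5 inhibitors 4 were called, and Usp18 had a 2-fold range, from 6.90 in FVB/NJ to 10.00 in C3H/HeJ. Other sensors of nucleic acids were called in 11 of 12 cases, 6 with a 2-fold range, among them the double-stranded RNA kinase Eif2ak2 (5.39 in SWR/J to 8.89 in JF1/Ms). Among 16 other interferon-stimulated genes 13 were called and 11 had a 2-fold range, with a median SD of 0.53 over strains against 0.20 for every probe set at or above a mean of 7.

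MSM/Ms was lowest for 4 of the 5 members. It was also lowest for several of the 16 other interferon-stimulated genes, among them Ifit3 (5.40), Rtp4 (6.61), Rsad2 (6.90) and Irgm1 (6.11). Its mean over the 16 genes, 7.06, was the lowest of all groups, followed closely by 7.14 in SWR/J and 7.21 in FVB/NJ, and the highest was 8.56 in C3H/HeJ. Strain means of that list correlated with Oas1a at 0.81, with Oas2 and Oas3 at 0.78 each, with Oasl1 at 0.62 and with Oasl2 at 0.47, as a description over 40 means. Samd9l went its own way, from 3.89 in SEA/GnJ to 11.81 in SM/J, with r = 0.07 to Oas2.

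The interferon-stimulated list had a median of 7.92 in the 12 groups below the gap in Oasl2 minus Oasl1 and 7.96 in the 28 above, and the medians of Irf9 were 10.28 and 10.19 and of Usp18 8.88 and 8.66. Kit, named for its likeness to Oasl2 and so bound to differ there, had medians of 7.36 and 8.53; Irf9 and Usp18 were named for likeness to other members, so these values describe and contrast nothing. Kit also marks progenitors and mast cells, and the mean of 7 basophil and mast cell markers correlated with Oasl2 at 0.67. That mean correlated with Oas3 at 0.47, with Oas2 at 0.39, with Oas1a at 0.31 and with Oasl1 at −0.07. Over the 7, r with Oasl2 was 0.68 for Kit, 0.31 for Hdc, 0.11 for Mcpt8, 0.06 for Ms4a2, 0.01 for Cpa3, −0.01 for Fcer1a and −0.24 for Gata2. Of these, 2 of 7 were called with a 2-fold range, Kit and Hdc, whose mean was 11.60, and their part in the Oasl2 pattern was not tested. Monocyte and macrophage markers correlated with Oasl2 at 0.34 and with the members between 0.21 for Oasl1 and 0.38 for Oas3. Plasmacytoid dendritic cell markers correlated with Oasl2 at −0.15 and with the members between −0.30 for Oas1a and −0.10 for Oas3. The mean of the 13 neutrophil markers correlated with the members between −0.02 for Oasl1 and 0.31 for Oasl2. Cell cycle genes, all 16 of which had a called 2-fold range, correlated with the members between 0.07 for Oasl2 and 0.30 for Oas1a. B cell, T and NK cell and erythroid lists correlated with the members between −0.23 and −0.01, eosinophil markers between −0.30 and 0.12 and megakaryocyte markers between −0.37 and 0.08. The list of azurophil granule and progenitor genes, which also holds Kit, correlated with Oasl2 at 0.45 and with Oasl1 at 0.08. With Oas1a its r was 0.38, with Oas3 0.33 and with Oas2 0.28.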

How the data were processed

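RNA of CD11b+ Ly6G+ bone marrow cells was measured on 81 arrays. The deposited values are probe set intensities; their range, 5.30 to 19348, shows a linear scale. Affymetrix Power Tools and RMA are listed in the submitters' processing notes, while the genome build is not given in the sources used here. Log2 was taken of each intensity with no further scaling. Precision is limited by the few arrays per strain.

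Symbols came from the platform's gene table: 21425 probe sets have 1 symbol, 1399 several and 2098 none. RefSeq GRCm38.p6 served for promoters, names and gene order. A gene outside the family is represented by its brightest probe set.

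Tests used lmFit and eBayes in limma 3.58.1 under R 4.3.3, checked on simulated data, with Benjamini-Hochberg adjustment over all probe sets and 41 residual and 7.93 prior degrees of freedom. Origins were assigned by common knowledge of the strains. The members, lists, pairs and tests were chosen with earlier results of these data known. Named genes were the members, the 3 genes most like each, and all other OAS genes and partners. Also named were 4 neutrophil markers and up to 4 genes of each list by SD of strain means. Gltp, Fcer1a, Ms4a2, Gata2, Cd34, Csf1r, Pcna and Irgm1 were named after their values were seen. Alternatives changed normalization, variance prior, filter, grouping and replicate block, or left out an array, a strain or groups.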

Additional observations from a re-analysis of the deposited data

How the results depend on the processing

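All 5 members were called with a 2-fold range under each of the 8 other settings tried and with each of 81 arrays left out, and each kept its lowest to highest range within 0.3 of the value given. Under the other settings Oasl2 was lower than C57BL/6J in 17 to 18 strains, Oas2 and Oas3 in 10 to 11, Oas1a in 5 to 7 and Oasl1 in 3 to 4. With 1 array left out Oas1a was lower in 4 to 8. For NZB/BINJ minus NZW/LacJ, 2 members were called under quantile normalization and 2 to 4 with 1 array left out. For NOD/ShiLtJ minus NOR/LtJ, 1 was called with a common array median, by background label and without the groups of conflicting labels, and 0 to 3 with 1 array left out. For MRL/MpJ minus LGJ, 0 were called with a common array median and 0 to 1 with 1 array left out. For CBA/J minus CBA/CaJ, 0 were called by background label, where Oasl1 was −0.11, Oasl2 −0.01 and Oas2 −0.10, and 0 with any array left out.

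Small uncalled differences changed sign with 1 array left out: Oas1a ran from −0.15 to 0.29 and Oasl1 from −0.16 to 0.41 in 129S1/SvImJ minus LP/J(676), Oas2 from −0.28 to 0.25 in C57BL/10J minus C57BL/6J, Oas1a from −0.06 to 0.24 and Oas3 from −0.34 to 0.08 in CBA/J minus CBA/CaJ, Oas2 from −0.01 to 0.27 in MRL/MpJ minus LGJ, and Oas1a from −0.14 to 0.31 in NOD/ShiLtJ minus NOR/LtJ. Between origins with 1 strain left out, 0 to 3 members were called lower, Oasl2 ran from −2.84 to −1.86, Oas2 from −1.91 to −1.22 and Oas3 from −1.79 to −1.0, and 843 to 1603 probe sets were called lower. Without the groups of conflicting labels Oasl2 was −2.13 (limma adjusted p = 0.0508). The correlation of Oasl1 with Oasl2 was −0.36 in classical strains and −0.03 by rank. Leaving out SM/J, or the pair of groups farthest from the median, was chosen after seeing the data and changed the sign of none of the correlations between members. Apart from values the smaller sets of arrays give by construction, the cause was not tested.

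Replicate numbers showed no pairing common to all groups. Over 595 pairs of 35 groups, the differences of replicate 2 minus replicate 1 correlated between −0.50 and 0.51 (median 0), with 24.9% over 0.1. Whether some of the groups shared a batch was not tested. With the replicate block all 5 members were called with a 2-fold range, and Oas2 in C57BL/10J minus C57BL/6J was 0.07.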
